A study of Cricetulus griseus with 16 samples.

Results

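The mitochondrial ribosome (mitoribosome) is the separate ribosome of the mitochondrial matrix, and it translates only the few proteins that mitochondrial DNA encodes, all of them core parts of the respiratory chain and the ATP synthase. Its ribosomal RNAs come from mitochondrial DNA, whereas its proteins are encoded in the nucleus, made in the cytosol and imported. Those proteins belong to a small subunit, which binds the mRNA and holds the decoding site, or a large subunit, which joins the amino acids and releases the chain near the inner membrane. The genes described here are all genes whose symbol is MRPL or MRPS followed by a number and at most 1 letter, as in Mrpl3 and Mrps18a, which gave 70 of the 20824 listed genes. Of these, 26 belong to the small subunit (Mrps) and 44 to the large one, which includes Mrps18a and Mrps30 in spite of their symbols. Mrps36 carries a small subunit symbol and was kept by the rule, although its product is now placed in the 2-oxoglutarate dehydrogenase complex. The symbols Mrpl15, Mrpl17 and Mrps21 were among those not matched by name, and they are not analysed here.

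RNA was sequenced from CHO cells, an established fibroblast-like line from Chinese hamster ovary, which were either left untreated at 37 °C or heated, with 1 h and 6 h exposures at 40 °C and a 1 h exposure at 42.5 °C. Each condition had 4 libraries, lettered A to D and labelled as biological repeats of this 1 line. Levels are given as CPM, the reads of a gene set against the total of its library, scaled by TMM, which sets the bulk of genes equal between libraries. Vim, an intermediate filament gene of such cells, lay between 1823 and 2381 CPM in the 15 libraries compared, while the glycosyltransferase genes St6gal1 and Mgat3, which are known to be silent in CHO cells, had at most 2 counts in any library. The heat label was checked on Hsph1, a cytosolic chaperone gene, which lay between 320 and 328 CPM in the 3 controls compared and between 1727 and 3768 at 42.5 °C.

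Libraries held 10504192 to 14668365 counts, so 3 counts corresponded to 0.205 to 0.286 CPM. All 70 genes passed the filter on low counts in every comparison, and each had at least 45 counts in each of the 15 libraries. The measurement is of bulk RNA, in which fewer cells carrying a transcript and less of it per cell cannot be told apart. CPM is not divided by transcript length, so the order of levels between genes below is an order of reads and not of molecules.

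The mitoribosomal genes spanned a wide range of reads in CHO cells. Mean CPM over the 15 libraries ran from 5.23 for Mrpl57 to 311 for Mrpl12, with a median of 53.0 over the 70 genes. Mrpl12, which forms the flexible stalk that recruits translation factors and also binds the mitochondrial RNA polymerase, had the most reads. It was followed by Mrpl13, an RNA-binding core protein of the large subunit, by Mrpl45, which lines the exit tunnel and anchors the ribosome at the membrane, by Mrps5, a small subunit protein near the mRNA entry, and by Mrpl3, a core protein near the peptidyl transferase site. These 5 genes held 22.5% of the summed level. At the other end, Mrpl55, Mrpl41, Mrps12, Mrpl36 and Mrpl57 had the fewest reads. Mrps12, the decoding site protein whose bacterial counterpart is altered in streptomycin resistance, averaged 7.28 ± 0.796 CPM at 37 °C (SD, n = 3). Mrpl36, a small protein of the large subunit, averaged 5.44 ± 1.33 CPM and Mrpl57 4.93 ± 0.462 CPM in the same libraries. The difference between these genes was not tested.

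Repeats were close to each other. The median coefficient of variation over the 70 genes was 4.79% in the controls (n = 3), 5.52% in the 40 °C 1 h group, 5.25% in the 40 °C 6 h group and 5.09% in the 42.5 °C group (n = 4 each). Across conditions the genes moved little: the highest of the 4 group means was a median of 1.12 times the lowest, and it stayed under 1.2 times for 57 of 70 genes. It reached 1.3 times for 3 genes, Mrpl57, Mrpl52 and Mrpl3, with 1.34 for Mrpl57 as the widest. The matching ranges over all genes are not given here, so these counts cannot be read as particular to the mitoribosomal genes.

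One control library stood apart and was left out of the comparisons. In 37 °C replicate D, 69 of 70 mitoribosomal genes lay above all 3 other control libraries and 1, Mrps27, lay below them. The median difference was 0.42 on the log2 scale (1.34-fold), and 11 genes were at least 1.5-fold higher. Over the 10434 genes with enough reads at 37 °C, the median difference of replicate D was 0.01 and 42.8% lay above the 3 others. Of these 10434 genes, 507 were at least 1.5-fold higher and 1204 at least 1.5-fold lower. The widest gaps were those of Mrps12 (1.73-fold), Mrpl11 (1.70-fold), a base-of-stalk protein, Mrpl36 (1.65-fold) and Mrpl12 (1.64-fold). Mrpl12 was at 330, 265 and 319 CPM in replicates A, B and C and at 498 in D. Cytosolic ribosomal protein genes moved the same way in that library, with 33 of 33 above the 3 others and a median of 0.58, while 8 of 17 mitochondrial tRNA synthetase genes did so, with a median of 0.07. Each comparison with 37 °C below was made with replicates A, B and C, and the count of mitoribosomal genes called with all 4 control libraries is given beside it.

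The summed level of the 70 genes was nearly level across conditions. It was 4356 ± 88.4 CPM in the controls (SD, n = 3), 4410 ± 69.4 in the 40 °C 1 h group, 4437 ± 64.3 in the 40 °C 6 h group and 4480 ± 62.8 in the 42.5 °C group (n = 4 each), and 5897 in replicate D. The small subunit genes summed to 1520 ± 15.2 CPM at 37 °C and 1531 ± 29.9 at 42.5 °C, and the large subunit genes to 2836 ± 73.3 and 2948 ± 33.4. The order of the groups rested on the scaling. By library totals alone, the sums were 4461 ± 59.5, 4463 ± 70.05, 4481 ± 20.6 and 4338 ± 37.9 CPM in the same order, so that the 42.5 °C group was the highest by TMM and the lowest by totals.

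**Figure D1:**
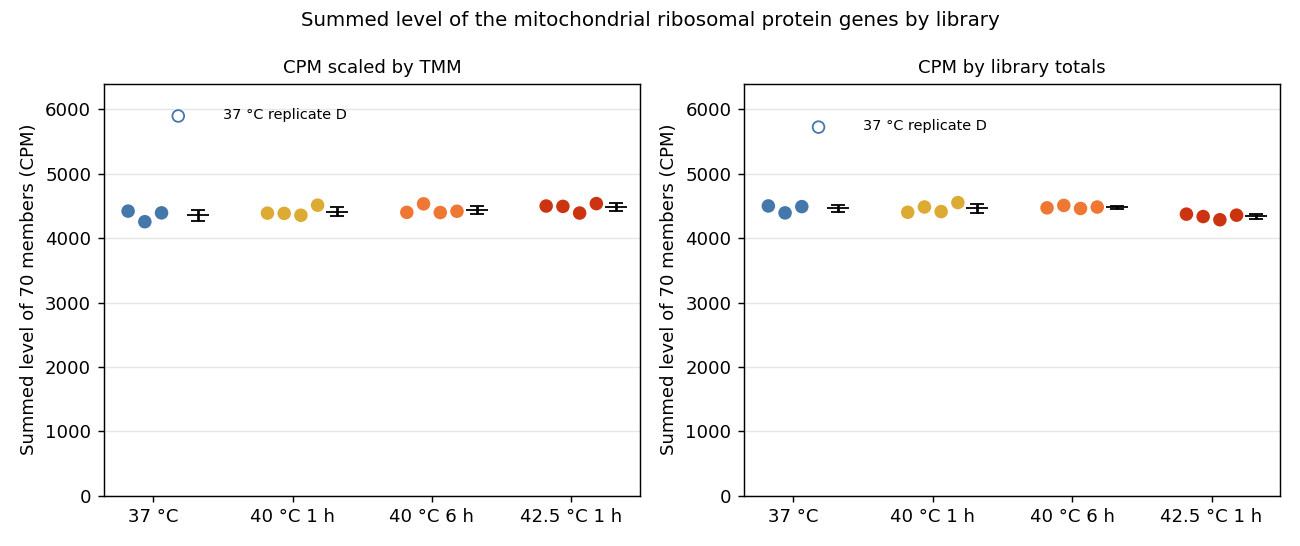
Summed level of the 70 mitoribosomal genes in each library, in CPM scaled by TMM (left) and by library totals (right). Filled circles are libraries used, the open circle is 37 °C replicate D, and the bars give the mean and SD of the libraries used. The 15 libraries lie between 4255 and 4536 CPM on the left, and replicate D lies at 5897.

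Heating at 40 °C for 1 h left no mitoribosomal gene past the test. With edgeR's quasi-likelihood test and an adjusted p under 0.05, 0 of 70 genes rose and 0 fell, beside 1.64% of all 10494 genes tested (1.07% higher and 0.572% lower). DESeq2 also called 0 of 70, and 3 of 70 had an unadjusted p under 0.05. A gene that also changed by at least 1.5-fold is called a differentially expressed gene (DEG). Of all genes 0.334% were DEGs, and none of the 70 was. Log2 fold changes of the 70 genes ran from -0.16 (Mrps28) to 0.28 (Mrps12), with a median of 0.01. The 95% interval lay within a 1.5-fold change for 69 of 70 genes, against 91.2% of all genes tested, the exception being Mrpl36, one of the genes with the fewest reads. Mrps12 was at 6.95, 6.71 and 8.19 CPM at 37 °C and at 9.38, 7.75, 8.65 and 9.31 after 1 h. One heated library lay within the range of the controls, and the log2 difference of 0.28 ± 0.12 (SE) had an adjusted p of 0.278. With all 4 control libraries the count was also 0. In that setting 0 of 4 heat shock genes, Hsph1 among them, were called, against 3 of 4 without replicate D. A count of 0 there cannot show an absence of change.

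Heating at 40 °C for 6 h changed 11 of the 70 genes, each by less than 1.3-fold. Of these, 6 rose and 5 fell, which is 15.7% of the mitoribosomal genes beside 29.4% of all 10499 genes tested (14.7% higher and 14.8% lower). None reached the DEG threshold, which 3.11% of all genes did. The median log2 fold change was 0.02 for the 70 genes and 0.00 for all genes, and the 95% interval lay within a 1.5-fold change for 70 of 70 genes, against 84.1% of all genes. In the small subunit 1 of 26 genes rose and 0 fell, and in the large subunit 5 of 44 rose and 5 fell.

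The 5 genes called lower after 6 h were all of the large subunit. Of the small subunit genes, 4 of 26 also had every 6 h library below every control, without a call, and 3 had them all above. In the large subunit these numbers were 6 and 6 of 44, and over all genes 1848 and 1955 of 10499. Mrpl3 (ENSCGRG00001016688) was at 124, 117 and 120.0 CPM at 37 °C and at 98.7, 92.1, 99.0 and 99.0 after 6 h. Every heated library lay below every control, and the log2 fold change was -0.31 ± 0.05 (SE; adjusted p = 0.000199). Mrpl58 (ENSCGRG00001023339), also known as Ict1, is a peptidyl-tRNA hydrolase built into the large subunit that frees stalled chains. It was at 39.7, 38.7 and 37.4 CPM at 37 °C and at 29.8, 29.4, 29.96 and 32.03 after 6 h, again without overlap, with a log2 fold change of -0.35 ± 0.06 (adjusted p = 0.000694). Mrpl38 (ENSCGRG00001003973), a protein of the central protuberance, was at 55.7, 55.8 and 54.9 CPM at 37 °C and at 48.1, 41.9, 39.9 and 47.2 after 6 h. All 4 heated libraries lay lower, and the log2 fold change was -0.33 ± 0.07 (adjusted p = 0.0015). Mrpl48, also of the central protuberance, fell by 0.24 on the log2 scale (adjusted p = 0.0149), and Mrpl2, a core protein beside the peptidyl transferase site, fell by 0.21 (adjusted p = 0.019). Mrpl48 lost its call without 37 °C replicate B or C (highest adjusted p = 0.086). Mrpl2 lost its call without 37 °C replicate A or B or 40 °C 6 h replicate D (highest adjusted p = 0.0859).

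Mrps27 (ENSCGRG00001016241), an RNA-binding pentatricopeptide repeat protein, was the 1 small subunit gene that rose after 6 h. It was at 74.2, 80.9 and 75.7 CPM at 37 °C and at 95.05, 102, 91.9 and 87.4 after 6 h. The groups did not overlap, and the log2 fold change was 0.29 ± 0.06 (adjusted p = 0.00175). In replicate D it was at 70.9 CPM, so this rise was kept with all 4 control libraries. Mrpl45 (ENSCGRG00001000066) was at 159, 151 and 160 CPM at 37 °C and at 170, 190, 187 and 185 after 6 h, with all heated libraries higher and a log2 fold change of 0.22 ± 0.05 (adjusted p = 0.00364). Mrpl18 (ENSCGRG00001010667), a 5S rRNA-binding family protein for which a cytosolic form made during heat shock has been described, was at 51.4, 53.7 and 54.1 CPM at 37 °C and at 63.5, 63.4, 58.7 and 59.4 after 6 h. The groups were apart, with a log2 fold change of 0.20 ± 0.06 (adjusted p = 0.0117), and the call was lost without 37 °C replicate A (adjusted p = 0.0613). Mrpl44, an RNase III-like protein, rose by 0.27 with groups that overlapped, and Mrpl47 and Mrpl19, which bind the large subunit rRNA, rose by 0.21 and 0.19. The call of Mrpl44 (adjusted p = 0.0367) was lost without any 1 of 37 °C replicates A and B and 40 °C 6 h replicates B, C and D (highest adjusted p = 0.208). That of Mrpl19 (adjusted p = 0.0148) was lost without 37 °C replicate B (adjusted p = 0.063), while that of Mrpl47 (adjusted p = 0.0105) was kept without each library.

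The number called at 6 h depended on single libraries. It was 7 without 37 °C replicate B, 17 without 40 °C 6 h replicate A and 4 with all 4 control libraries. Those 4 were 1 gene higher and 3 lower, and Mrps27, Mrpl3, Mrpl58 and Mrpl38 were the genes that kept their calls under every alternative tried except the DEG threshold. The share of all genes called under each of these settings is not given here. The changes in number cannot therefore be taken as particular to the mitoribosomal genes.

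**Figure D2:**
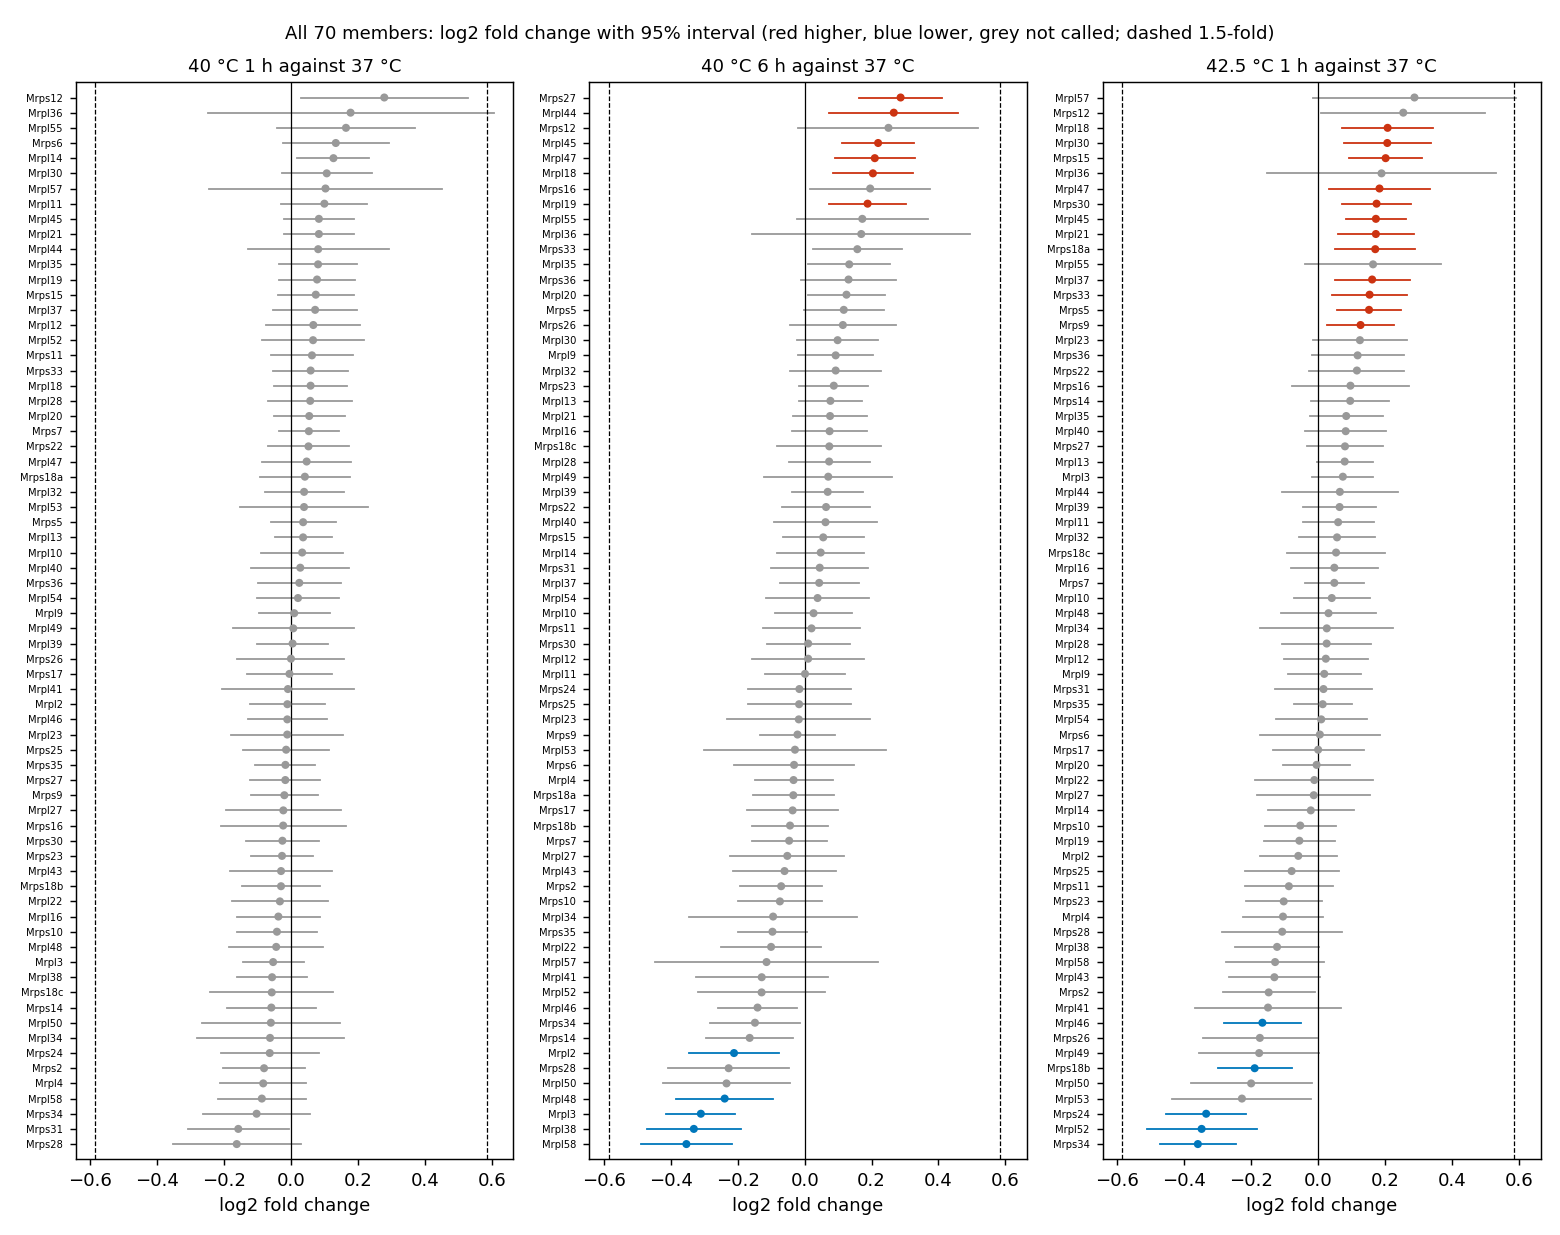
Log2 fold change of each of the 70 genes in the 3 heated groups against 37 °C, sorted within each panel, with 95% intervals. Red marks genes with an adjusted p under 0.05 that were higher, blue those that were lower, and grey the rest; dashed lines stand at a 1.5-fold change. There are 0, 11 and 17 coloured genes from left to right, and all 70 points lie inside the dashed lines in every panel.

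Heating at 42.5 °C for 1 h changed 17 of the 70 genes, again each by less than 1.3-fold. Of these, 12 rose and 5 fell, which is 24.3% beside 43.1% of all 10470 genes tested (20.8% higher and 22.3% lower). No gene passed the DEG threshold, which 7.51% of all genes did. The median log2 fold change was 0.03 against 0.00 for all genes, and the interval lay within a 1.5-fold change for 69 of 70 genes against 79.8% of all genes. In the small subunit 4 of 26 genes rose and 3 fell, and in the large subunit 8 of 44 rose and 2 fell. The split between rises and falls rested on the scaling: by library totals alone 0 of 70 genes rose and 17 fell, and of all genes called 26.8% were higher. With all 4 control libraries 0 rose and 3 fell, and without 37 °C replicate B 4 rose and 5 fell. The share of all genes called in those settings is not given here.

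The 3 largest falls at 42.5 °C held under every alternative except the DEG threshold. Mrps34 (ENSCGRG00001023318), a protein that stabilises the small subunit rRNA, was at 64.3, 61.7 and 57.9 CPM at 37 °C and at 48.3, 47.4, 49.2 and 47.5 at 42.5 °C. The heated libraries lay in a narrow band below all controls, and the log2 fold change was -0.36 ± 0.05 (adjusted p = 7.27e-05). Mrps24 (ENSCGRG00001009085), which sits at the mRNA entry channel, was at 48.4, 52.6 and 48.4 CPM at 37 °C and at 39.2, 40.1, 40.5 and 39.1 at 42.5 °C. The groups did not overlap, and the log2 fold change was -0.33 ± 0.06 (adjusted p = 0.000225). Mrpl52 (ENSCGRG00001009095), a large subunit protein found only in mitochondria, was at 23.4, 25.02 and 22.4 CPM at 37 °C and at 17.7, 19.04, 18.5 and 19.3 at 42.5 °C. All heated libraries lay lower, and the log2 fold change was -0.35 ± 0.08 (adjusted p = 0.00199). Of the smaller falls, Mrps18b, a small subunit relative of bacterial S18, fell by 0.19 (adjusted p = 0.00798) and kept its call without each library. Mrpl46, a protein of the large subunit, fell by 0.17 (adjusted p = 0.0217). It lost its call without any 1 of 37 °C replicates A and C and 42.5 °C replicates A, B and C (highest adjusted p = 0.0735), and both calls were lost with all 4 control libraries.

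The rises at 42.5 °C were smaller, and each of those named here lost its call with library totals alone and with all 4 control libraries. Mrpl18 was at 64.0, 62.2, 53.9 and 65.6 CPM at 42.5 °C, with replicate C inside the range of the controls, and its log2 fold change was 0.21 ± 0.06 (adjusted p = 0.0158; 0.0724 without 37 °C replicate A). Mrps15, which binds the small subunit rRNA, was at 66.9, 62.4 and 68.4 CPM at 37 °C and at 73.2, 78.6, 74.5 and 78.0 at 42.5 °C. The groups were apart, and the log2 fold change was 0.20 ± 0.05 (adjusted p = 0.0054). Mrpl30, a large subunit core protein, rose by 0.21 (adjusted p = 0.013; 0.0933 without 37 °C replicate B), and Mrps30, a large subunit protein found only in mitochondria, rose by 0.17 (adjusted p = 0.00901; 0.056 without 37 °C replicate B). Mrpl45 rose by 0.17 (adjusted p = 0.00364). Mrpl47 rose by 0.18 (adjusted p = 0.0465), a call lost without any 1 of the 3 controls or of 42.5 °C replicates B and D (highest adjusted p = 0.13). Mrps5 rose by 0.15 (adjusted p = 0.0128; 0.0691 without 37 °C replicate B).

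Several genes with many reads or with a wide gap in replicate D did not pass the test in any comparison. Mrpl12 was at 309, 318, 319 and 299 CPM at 42.5 °C, inside the range of the controls, with a log2 difference of 0.02 ± 0.06 (95% interval -0.10 to 0.15). Mrpl11 was at 52.6, 53.2 and 51.2 CPM at 37 °C and at 54.3, 54.4, 55.7 and 55.05 at 42.5 °C, just above the controls, with a log2 difference of 0.06 ± 0.05 (adjusted p = 0.351). Mrpl13 differed by 0.08 (adjusted p = 0.116) and Mrps12 by 0.25 (adjusted p = 0.0865). Of the 70 genes, 36 were called in none of the 6 comparisons and 34 in at least 1. Against 37 °C, 8 genes were called at 6 h and not at 42.5 °C, 14 at 42.5 °C and not at 6 h, and 3 in both, Mrpl18, Mrpl45 and Mrpl47. These comparisons share the control libraries. Of all genes tested, 29.4% were called at 6 h and 43.1% at 42.5 °C. Matching counts of any call, or of a call in both, are not given for all genes. The counts can therefore not be read as particular to the mitoribosomal genes.

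**Figure D3:**
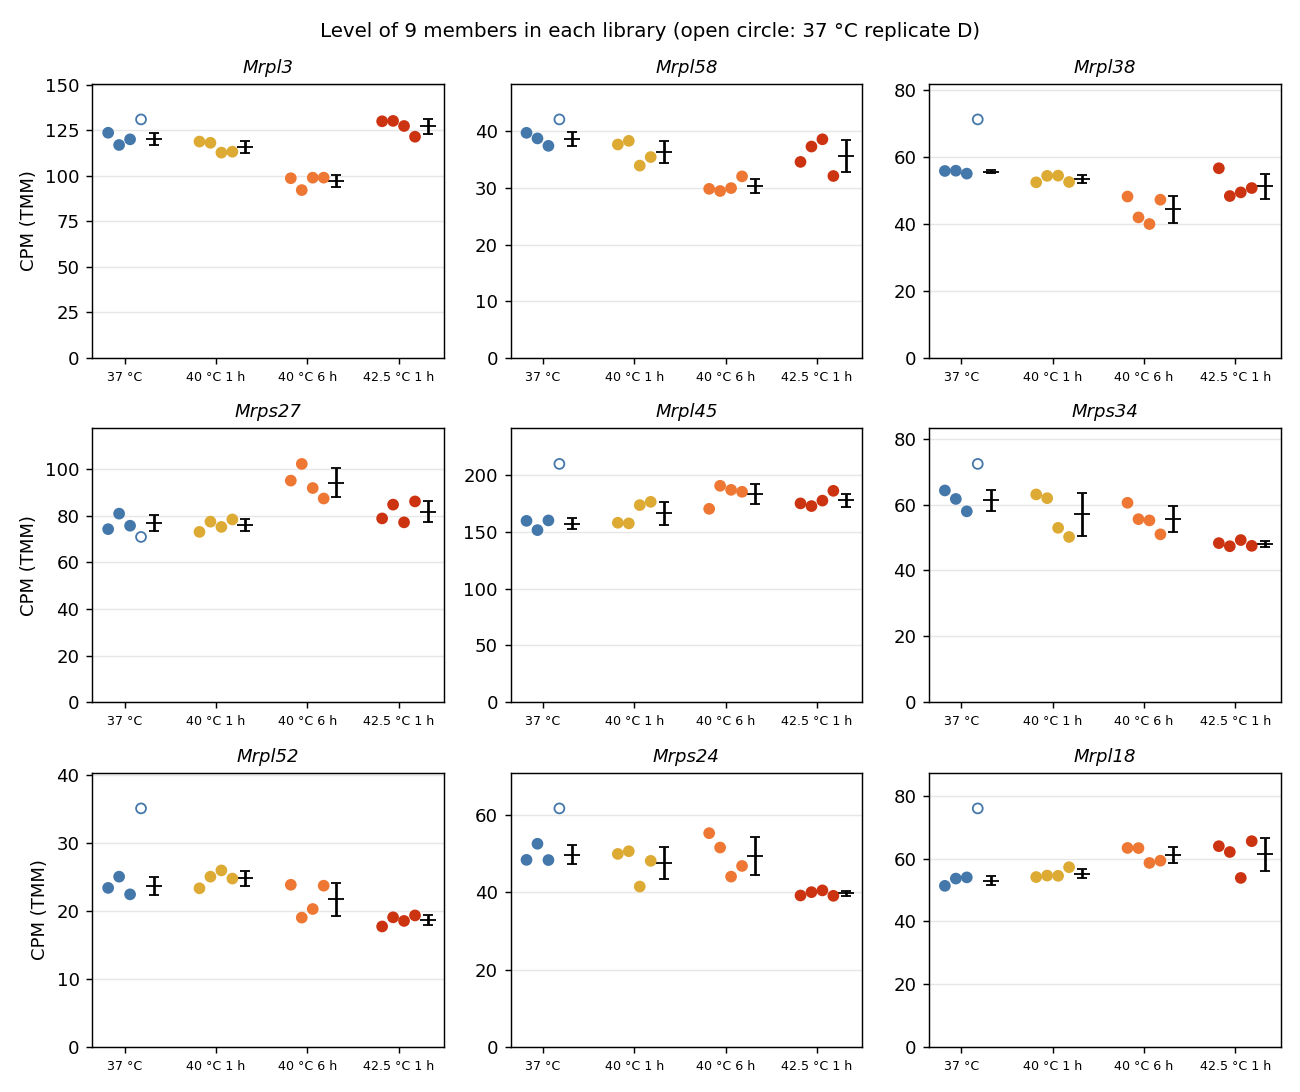
Level of 9 mitoribosomal genes in each library, in CPM scaled by TMM on axes that start at 0; the open circle is 37 °C replicate D, and bars give the mean and SD of the other libraries of a group. Mrpl3, Mrpl58 and Mrpl38 are lowest and Mrps27 highest at 40 °C for 6 h, and Mrps34, Mrpl52 and Mrps24 are lowest at 42.5 °C.

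The heated groups were also compared with each other, which leaves the control libraries out. Between 6 h and 1 h at 40 °C, 2 of 70 genes were higher and 4 lower at 6 h, 8.57% beside 18.5% of all 10439 genes tested (9.45% higher and 9.04% lower), and no gene was among the 1.28% of all genes that were DEGs. Mrps27, at 73.1, 77.4, 75.2 and 78.4 CPM after 1 h, was higher at 6 h by 0.31 ± 0.05 on the log2 scale (adjusted p = 0.00109). Mrpl3, at 119, 118, 113 and 113 CPM after 1 h, was lower at 6 h by -0.25 ± 0.05 (adjusted p = 0.0014). In both genes every 6 h library lay on 1 side of every 1 h library. Mrpl38 and Mrpl58 were likewise lower without overlap, with log2 differences of -0.27 and -0.26 (adjusted p = 0.00782 and 0.00982), and these 4 calls were kept without each library. Mrpl2 was lower by -0.20 (adjusted p = 0.0271), a call lost without 40 °C 1 h replicate A, B or C or 40 °C 6 h replicate C or D (highest adjusted p = 0.0795). Mrps31 was higher by 0.21 (adjusted p = 0.0408), a call lost without 40 °C 1 h replicate A, B or C or 40 °C 6 h replicate B, C or D (highest adjusted p = 0.135).

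Between 42.5 °C and 40 °C at 1 h, 6 of 70 genes were higher and 7 lower at 42.5 °C, 18.6% beside 36.1% of all 10441 genes tested (16.4% higher and 19.6% lower), and none was a DEG, against 5.27% of all genes. By library totals alone the split was 1 higher and 12 lower, and 25.8% of all genes called were higher. Mrpl52, at 23.3, 25.02, 25.9 and 24.7 CPM after 1 h at 40 °C, showed the largest difference, -0.41 ± 0.07 (adjusted p = 0.00035), with no overlap. Mrps24 and Mrps34 were lower by -0.27 and -0.26 (adjusted p = 0.00435 and 0.0101), also without overlap and with calls kept without each library. Mrps30 was higher by 0.20 (adjusted p = 0.00436) and kept its call under every alternative except the DEG threshold. Mrps9, a core protein of the small subunit, was higher by 0.15 (adjusted p = 0.00884), a call lost with library totals alone. Mrps14, higher by 0.16 (adjusted p = 0.0331), and Mrpl53, lower by -0.27 (adjusted p = 0.0254), each lost the call without any 1 of 4 libraries. For Mrps14 these were 40 °C 1 h replicates B and C and 42.5 °C replicates A and C (highest adjusted p = 0.114), and library totals alone also ended the call. For Mrpl53 they were 40 °C 1 h replicate A and 42.5 °C replicates B, C and D (highest adjusted p = 0.0917).

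In the 42.5 °C group set against the 40 °C 6 h group, 10 of 70 genes were higher and 11 lower at 42.5 °C, 30% beside 47% of all 10427 genes tested (22.5% higher and 24.5% lower), and none was a DEG, against 8.25% of all genes. By library totals alone 4 were higher and 13 lower, and 33.2% of all genes called were higher. Mrpl3, at 130, 130, 127 and 121 CPM at 42.5 °C, was higher there by 0.38 ± 0.05 (adjusted p = 4.37e-06), and the groups lay far apart. Mrpl48 was higher by 0.27 ± 0.07 (adjusted p = 0.00341) without overlap. Mrpl57, the gene with the fewest reads, was at 5.15, 6.81, 6.59 and 5.68 CPM at 42.5 °C and at 4.77, 4.51, 3.55 and 5.38 after 6 h. The groups overlapped, the log2 difference was 0.40 ± 0.15 (adjusted p = 0.0383), and the call was lost without 40 °C 6 h replicate B or C or 42.5 °C replicate B or C (highest adjusted p = 0.131). In the other direction, Mrps24 was lower at 42.5 °C by -0.32 ± 0.07 (adjusted p = 0.00112) and Mrps26, a small subunit protein found only in mitochondria, by -0.29 ± 0.07 (adjusted p = 0.00175), both without overlap. Mrpl49 was lower by -0.25 (adjusted p = 0.0183) with groups that overlapped, a call lost without 40 °C 6 h replicate A or B or 42.5 °C replicate C (highest adjusted p = 0.0583).

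Gene position bears on how far these calls are separate. In the RefSeq annotation of another Chinese hamster assembly, which was read for neighbours only, 68 of the 70 genes were matched by symbol, on 10 chromosomes. Only Mrps11 and Mrpl46 were next to each other, and at 42.5 °C both were lower than after 1 h at 40 °C, by -0.15 (adjusted p = 0.0375) and -0.15 (adjusted p = 0.0458). The call of Mrpl46 was lost without any 1 of 6 libraries (40 °C 1 h replicates A, C and D and 42.5 °C replicates A, B and C; highest adjusted p = 0.143). In that annotation 7 of the matched genes overlapped another protein-coding gene: Mrpl19, Mrpl27, Mrpl38, Mrpl49, Mrpl57, Mrps2 and Mrps25. Chromosome 1, which is listed there as separate sequences that each start anew, was read sequence by sequence. Whether the counting used strand is not given, so reads of such pairs may not be told apart.

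The genes that serve the mitoribosome were counted in the same comparisons with 37 °C, from lists of factors written by role. Their counts with other settings were added after the data were seen, without the share of all genes under those settings. After 1 h at 40 °C none of these serving genes passed the test, by DESeq2 or with all 4 control libraries either, beside 1.64% of all genes tested. The setting with all 4 control libraries also called 0 of 4 heat shock genes at that point. Of all genes tested, 29.4% were called at 6 h (14.7% higher and 14.8% lower) and 43.1% at 42.5 °C (20.8% higher and 22.3% lower). Of the translation factors, which start, extend and end the chain, 2 of 15 rose and 2 fell at 6 h, and 3 rose and 2 fell at 42.5 °C. With all 4 control libraries 0 rose and 1 fell at either point. Without 1 library the number of these factors called was as low as 1 at 6 h (without 37 °C replicate B or C) and 3 at 42.5 °C (without 37 °C replicate A or B). Among factors that build the mitoribosome and mature its rRNA, 8 of 29 rose and 2 fell at 6 h, whereas 4 rose and 12 fell at 42.5 °C. With all 4 control libraries 0 rose and 0 fell at 6 h, and 1 rose and 8 fell at 42.5 °C. Without 37 °C replicate A 4 were called at 6 h and without replicate B 6, all higher, and without replicate B 2 rose and 8 fell at 42.5 °C. Ddx28, an RNA helicase of large subunit assembly, was at 17.3, 14.5 and 16.2 CPM at 37 °C and at 4.24, 4.83, 3.20 and 5.68 at 42.5 °C. The groups lay far apart, with a log2 fold change of -1.83 ± 0.14 (adjusted p = 1.37e-07). Mrm3, an rRNA methyltransferase, fell by 0.77 (adjusted p = 2.41e-06), and Polrmt, the mitochondrial RNA polymerase, fell by 0.63 (adjusted p = 5.47e-07). Among the mitochondrial aminoacyl-tRNA synthetases, which load the tRNAs, 2 of 17 rose and 5 fell at 6 h, and 1 rose and 8 fell at 42.5 °C. With all 4 control libraries 1 rose and 3 fell at 6 h, and 1 rose and 6 fell at 42.5 °C. Pars2, the prolyl-tRNA synthetase, was at 21.8, 20.9 and 23.9 CPM at 37 °C and at 8.94, 8.58, 7.17 and 11.1 at 42.5 °C, a log2 fold change of -1.30 ± 0.12 (adjusted p = 5.62e-07) with no overlap. These 4 falls at 42.5 °C (Ddx28, Mrm3, Polrmt and Pars2) kept an adjusted p under 0.05 under every setting tried. At 42.5 °C 0 of the 70 ribosomal protein genes, 3 of the 29 assembly factors and 2 of the 17 synthetases were DEGs, beside 7.51% of all genes tested. In lists this small, the counts of 3 and 2 cannot be set apart from that share. Polrmt was near the DEG threshold of 0.585 on the log2 scale. Its log2 fold change was -0.57 with all 4 control libraries and -0.584 without 42.5 °C replicate D, short of that threshold.

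The transcripts that the mitoribosome translates were counted too. Of the 13 mitochondrially encoded protein genes, 9 rose and 0 fell at 6 h, beside 14.7% of all genes tested that rose and 14.8% that fell. At 42.5 °C 13 rose, with a median log2 fold change of 0.63, beside 20.8% of all genes that rose and 22.3% that fell. All 13 lie together on mitochondrial DNA, so their changes may not be separate from each other. With all 4 control libraries 2 rose at 6 h and 7 at 42.5 °C, and leaving out 1 library gave 6 (37 °C replicate B or C) to 13 at 6 h and 12 to 13 at 42.5 °C. Cytb, a subunit of complex III, was at 1858, 1412 and 1523 CPM at 37 °C, at 2089, 2929, 2702 and 2535 after 6 h and at 2686, 3001, 2592 and 2783 at 42.5 °C. Both heated groups lay above all 3 controls, with log2 fold changes of 0.68 ± 0.10 (adjusted p = 8.15e-05) and 0.78 ± 0.07 (adjusted p = 8.33e-07). The first call was lost with all 4 control libraries (adjusted p = 0.0627). Cytosolic ribosomal protein genes, the nearest counterpart by role, showed 1 of 33 higher and 3 lower at 6 h and 23 higher and 2 lower at 42.5 °C. With all 4 control libraries none was called at either point, and by library totals alone 0 were higher and 3 lower at 6 h and 10 higher and 3 lower at 42.5 °C. Without 37 °C replicate A, 0 were called at 6 h. Of 5 mitoribosomal proteins known under other symbols, 1, Dap3 of the small subunit, rose at 42.5 °C, by 0.15 (adjusted p = 0.0299), a call lost with all 4 control libraries, by library totals alone, in 1 fit over 4 groups and without any 1 of 37 °C replicates A and B and 42.5 °C replicate C. No test of the difference between these lists was made.

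**Figure D4:**
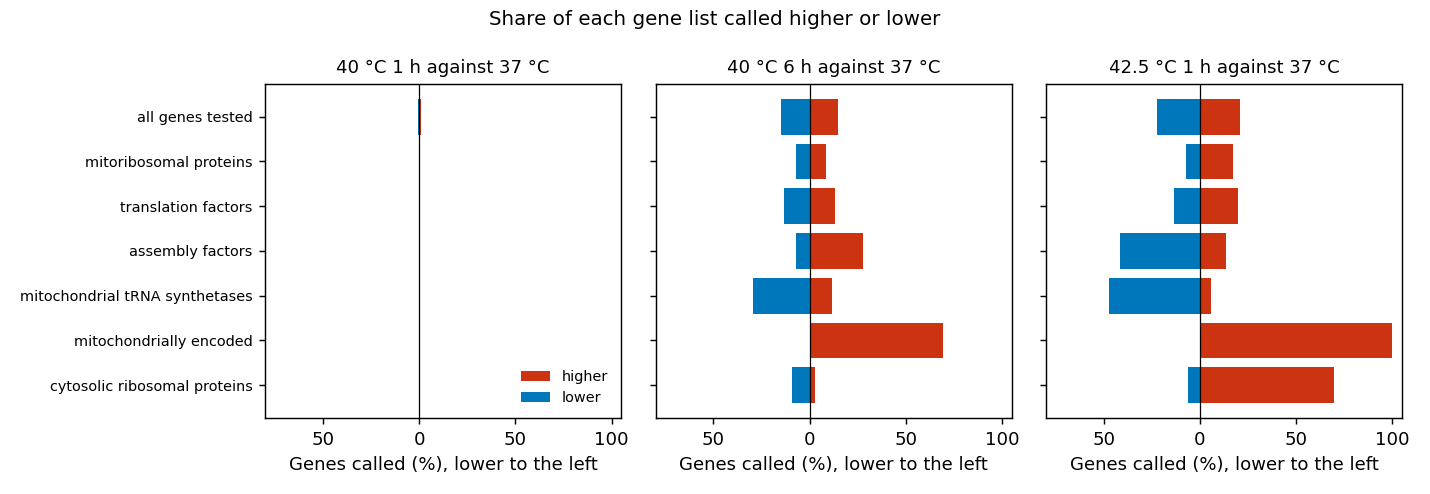
Share of each gene list with an adjusted p under 0.05, higher to the right in red and lower to the left in blue, in percent of the genes tested, for the 3 heated groups against 37 °C. The 70 mitoribosomal genes show 24.3% at 42.5 °C beside 43.1% of all genes, and the mitochondrially encoded genes are all on the higher side.

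**Figure D5:**
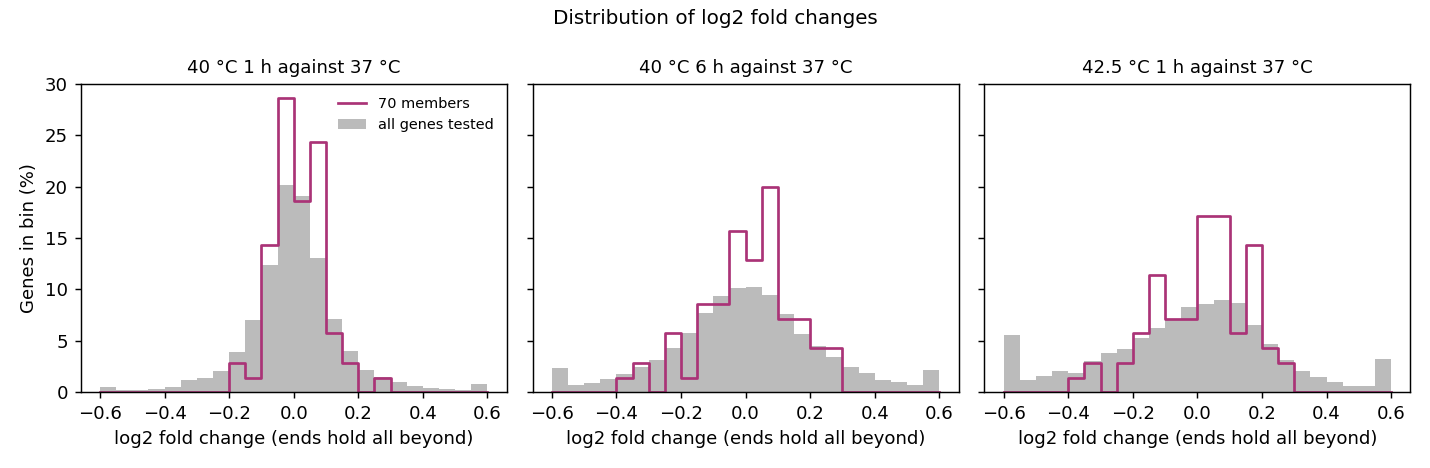
Distribution of log2 fold changes of the 70 mitoribosomal genes (purple line) and of all genes tested (grey bars) in percent of genes per bin, for the 3 heated groups against 37 °C; the end bins hold everything beyond them. At 42.5 °C the 70 genes span -0.36 to 0.29, while genes outside that range are seen among all genes.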

How the data were processed

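Total RNA was made into TruSeq libraries and sequenced as paired reads, and, per the study's methods, reads were trimmed, aligned to CHOK1GS_HDv1 and counted in CLC Genomics Workbench by the authors. The deposited values are whole-number read counts per gene for 16 libraries, without normalization. The annotation release, strandedness and treatment of reads with several mapping places are not given in the sources used here, so genes with near-identical copies may share reads. The study left out 1 control, taken to be 37 °C replicate D because its counts alone differ from those in the study's own gene table; 15 libraries were used. The limit of 3 counts covers counting error only.

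Groups came from the sample labels. Each of 6 pairs of groups was fitted on its own libraries with edgeR 4.0.16 in R 4.3.3 (filterByExpr defaults, TMM, quasi-likelihood test, two-sided), with Benjamini-Hochberg adjustment over all genes tested. SE is the log2 fold change divided by the square root of F. The same steps recovered the larger of the changes planted in simulated counts. All planted changes were at least 1.5-fold, so the recovery of smaller changes, such as those called here, was not tested. Figures were drawn with matplotlib 3.10.9.

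Genes were named if they were DEGs, if they were among the 6 largest rises or falls called against 37 °C or the 3 largest between heated groups, if they had the 5 highest or lowest levels, or if they were Mrpl18, Mrpl12, Mrps12, Mrpl45, Mrpl11 or Mrps27. Others named (Mrps28, Mrps11, Mrps18a, Mrps36 and the few from the companion lists) were chosen after their values were seen. Members, lists and this rule were chosen with earlier results of these data known. The alternatives were DESeq2's size factors, library totals alone, DESeq2 1.42.0's Wald test, dropping the filter, at least 10 counts in every library, 1 fit over 4 groups, the replicate letter as a block, all 4 controls, the DEG threshold, and each library left out. No protein or promoter sequences were used here.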

Additional observations from a re-analysis of the deposited data

Results flagged for a closer look

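Most values that stood far from their group were in 37 °C replicate D. Of 140 groups of 4 libraries tested by Dixon's criterion, 18 held such a library, 12 of them replicate D, and chance gives about 1 in 20. In replicate D the summed level of the 70 genes was 5897 CPM, against 4255 to 4420 in the other controls. The single genes were Mrpl13 (394 CPM), Mrpl45 (209.5), Mrpl11 (89.3), Mrps30 (86.0), Mrpl19 (79.2), Mrpl46 (78.1), Mrpl18 (76.1), Mrpl38 (71.1), Mrpl2 (64.7), Mrpl47 (61.2) and Mrpl41 (22.95), each above its 3 other controls. That library was left out of the comparisons, except where a count with all 4 control libraries is given, and 69 of 70 genes lay above the 3 others in it.

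Among the remaining libraries, Mrpl53 was low in 37 °C replicate C at 16.4 CPM, and Mrpl18 was high in 40 °C 1 h replicate D at 57.3. At 40 °C for 6 h, Mrpl3 was low in replicate B at 92.1 CPM, Mrps31 was low in replicate A at 30.01, Mrpl13 was high in replicate D at 286, and the summed level was high in replicate B at 4533 CPM.

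For 6 genes the change from 37 °C differed between 6 h and 1 h at 40 °C by edgeR's test of that difference. The log2 differences were 0.31 for Mrps27, 0.21 for Mrps31, -0.27 for Mrpl38, -0.26 for Mrpl58, -0.25 for Mrpl3 and -0.20 for Mrpl2, over 4 libraries each.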

How the results depend on the processing

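No log2 fold change of a named gene changed sign with its call under any alternative tried. Over the named genes and comparisons, 2843 values kept their side of the threshold, 161 lost a call and 56 gained one. Among them, DESeq2's test lost the calls of Mrpl46, Mrpl47 and Mrps9 at 42.5 °C against 37 °C, of Mrps31 at 6 h against 1 h, of Mrps15 and Mrpl46 at 42.5 °C against 40 °C 1 h, and of Mrpl44, Mrpl52 and Mrpl57 at 42.5 °C against 40 °C 6 h, and 1 fit over 4 groups lost those of Mrpl53 and Mrpl44 in these last comparisons. With all 4 control libraries the number of genes called was 4 at 40 °C for 6 h (11 without replicate D) and 3 at 42.5 °C (17 without it). Replicate D lay above the other controls for 69 of 70 genes. It was also at least 1.5-fold away from their mean for 1711 of the 10434 genes with enough reads at 37 °C. The drop in calls cannot be taken as particular to the mitoribosomal genes. With the DEG threshold the number was 0 in each comparison. Leaving out 1 library gave 0 to 0 genes for 40 °C 1 h against 37 °C, 7 to 17 for 40 °C 6 h, 9 to 19 for 42.5 °C, 4 to 9 for 6 h against 1 h, 9 to 13 for 42.5 °C against 40 °C 1 h and 15 to 20 for 42.5 °C against 40 °C 6 h. The lowest counts at 6 h and at 42.5 °C were without 37 °C replicate B, and the highest without 40 °C 6 h replicate A and 42.5 °C replicate D. The cause was not tested, and the share of all genes called without each library is not given here.

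Whether the replicate letters mark pairs cannot be told from these values. Deviations from group means had a mean r of 0.06 in 21 pairs of the same letter, 7 of them over 0.1. The mean r was -0.02 in 63 other pairs, 12 of them over 0.1. With the letter as a replicate block, 11 genes were called for 6 h against 1 h in place of 6, and 0, 10, 19, 17 and 20 in the other 5 comparisons. The share of all genes called with the block is not given here. These changes in number can therefore not be taken as particular to the mitoribosomal genes or as a sign of pairing.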
